A study of Mus musculus with 15 samples.

Results

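Ptpro and 9 other tyrosine phosphatases of blood leukocytes were examined in mouse whole blood 6 h after dosing with the BET bromodomain inhibitor ABBV-075. The genes were Ptpro, Ptprc, Ptprj, Ptpre and Ptpra, which span the membrane, and Ptpn1, Ptpn2, Ptpn6, Ptpn12 and Ptpn22, which lie inside the cell. All probe sets annotated with one of these symbols alone were taken, 25 of the 34945 probe sets that carry a single gene name, and they covered all 10 genes. Ptpro was singled out because its signal is lower in these same arrays, so its values are given as a description without a test. The other 9 genes were tested. Ptpro (Entrez Gene 19277) lies at chr6:137252299-137464634 in GRCm38.p6.

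Blood came from 15 mice in 3 groups of 5, which received vehicle or ABBV-075 at a dose of 1 mg/kg or of 5 mg/kg, and each mouse had 1 Affymetrix 3' expression array. The sources used here do not state strain, sex, age or route of dosing. The compound displaces BET proteins from acetylated chromatin.

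Tyrosine phosphatases remove phosphate from tyrosines and so set the threshold at which kinases of the Src, Syk and Jak families signal in leukocytes. Removal of phosphate from the inhibitory tail of a Src family kinase switches that kinase on, whereas removal from its activation loop, from a Jak kinase or from a Stat factor switches signalling off. Receptor-type members carry an extracellular part and a membrane span, and the non-receptor members are brought to their substrates by adaptor domains or by anchoring to membranes. Ptpro is best known from the podocytes of the kidney, and shorter forms of it have been described in B cells, macrophages and osteoclasts.

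The start-site regions of 3 members are shown because Ptpro is the gene the set was built on, Ptpn22 had the lowest differences from vehicle among the tested members and Ptprc marks leukocytes as a whole. Each runs from 250 bases before the annotated start to 50 after it, 300 bases in all, 5′ to 3′, from RefSeq on GRCm38.p6. The table held 13 starts for 8 of the 10 genes, 1 of them for Ptpro. Capitals mark matches on either strand to GAGGAAG, the core recognised by the myeloid factor PU.1, to TATAAA or to the E-box CACGTG. No match overlapped another.
Ptpro, chr6:137252049-137252348, + strand: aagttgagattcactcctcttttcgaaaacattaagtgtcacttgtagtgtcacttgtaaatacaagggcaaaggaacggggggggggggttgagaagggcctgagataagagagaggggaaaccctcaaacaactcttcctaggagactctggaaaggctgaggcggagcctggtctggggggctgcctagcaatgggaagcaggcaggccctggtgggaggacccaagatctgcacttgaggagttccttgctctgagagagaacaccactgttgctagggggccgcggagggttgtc
Ptpn22, chr3:103859545-103859844, + strand: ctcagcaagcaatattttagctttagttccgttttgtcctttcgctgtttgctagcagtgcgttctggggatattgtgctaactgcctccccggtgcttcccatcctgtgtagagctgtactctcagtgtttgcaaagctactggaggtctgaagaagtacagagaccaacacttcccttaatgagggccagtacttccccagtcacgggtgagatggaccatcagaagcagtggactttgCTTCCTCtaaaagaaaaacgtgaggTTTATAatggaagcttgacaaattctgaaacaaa
Ptprc, chr1:138175256-138175555, - strand: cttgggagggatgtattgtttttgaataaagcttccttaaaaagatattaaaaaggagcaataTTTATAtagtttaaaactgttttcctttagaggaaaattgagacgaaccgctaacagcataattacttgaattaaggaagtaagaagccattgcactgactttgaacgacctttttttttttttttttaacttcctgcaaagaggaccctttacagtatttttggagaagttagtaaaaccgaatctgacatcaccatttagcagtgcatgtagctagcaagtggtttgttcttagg

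The Ptpro window held none of the 3 motifs and 5 CG pairs, against a median of 7 over 32851 such windows. The Ptpn22 window held GAGGAAG on the reverse strand at position -9 from the start and TATAAA on the reverse strand at position 16, whereas the Ptprc window held TATAAA on the reverse strand at position -187. Both genes have another annotated start, 2 in all for each, and the windows of those second starts held none of the 3 motifs. GAGGAAG was found in 13.6% of all windows, TATAAA in 13.6% and CACGTG in 7.15%. These matches describe the letters alone. Whether the leukocyte transcripts of Ptpro begin at this start was not measured here.

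Array brightness differed between mice, with deposited medians from 3.61 to 25.4, so intensities were quantile normalised, set to at least 16 and taken to log2. The dimmest was 1 mg/kg replicate 1, where normalisation took a deposited Ptpro value of 6.53 to 24.3. Of all pairs of arrays, it and 1 mg/kg replicate 4 correlated least over the tested probe sets (r = 0.685). The value 16 is called the floor below, and values at it have no order among themselves. Of the 25 member probe sets, 19 lay above the floor on at least 5 arrays and entered the fit over all 19736 tested probe sets. A Ptpro probe set is among them, so shares and counts over all tested probe sets include it. Its own test is not reported. Those 19 covered all 10 genes. The probe set of highest mean of each gene is called its main probe set. Median log2 differences of blood cell marker lists at 5 mg/kg and at 1 mg/kg from vehicle were -0.28 and -0.67 for neutrophils (6 genes), 0.55 and -0.26 for B cells (6 genes), and 0.23 and -0.25 for T cells (8 genes, with Cd4 at the floor on all 15 arrays). They were -0.42 and -0.56 for NK cells (6 genes), -0.23 and -0.43 for platelets (6 genes) and -0.28 and -0.07 for red cells (4 genes), and 0 of these genes passed an adjusted p of 0.05. When the 2 vehicle arrays with most 18S signal were left out, the platelet medians were -0.58 and -0.77, the NK cell median at 1 mg/kg was -0.86 and the neutrophil median at 5 mg/kg was -0.54. The signal of the 18S ribosomal RNA controls was also uneven, its mean log2 value being 11.19 ± 0.94 in vehicle mice, 9.97 ± 0.43 in the 1 mg/kg group and 9.42 ± 0.42 in the 5 mg/kg group (SD, n = 5 each). The part of the lymphocyte, platelet and neutrophil markers in the results below was not tested. With the 18S signal as a covariate, the Ptpro differences given below were -1.52 at 5 mg/kg and -0.86 at 1 mg/kg. The 18S values ran from 10.24 to 12.31 with vehicle, 9.58 to 10.7 at 1 mg/kg and 8.83 to 9.88 at 5 mg/kg. Vehicle and 5 mg/kg did not overlap in it, so this covariate cannot separate the 18S signal from the dose. All values given with it, here and below, carry that limit.

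Ptpro was lower at each dose. Its main probe set had normalised intensities of 67.6, 62.1, 66.4, 62.8 and 54.4 in vehicle mice, 24.3, 31.4, 45.0, 34.5 and 29.3 at 1 mg/kg, and 27.5, 16, 16, 27.5 and 16 at 5 mg/kg. All 10 treated arrays lay below all 5 vehicle arrays, and 3 of the 5 arrays at 5 mg/kg were at the floor. The arrays at 1 and 5 mg/kg overlapped. The mean log2 value was 5.97 ± 0.12 in vehicle mice, 5.01 ± 0.33 in the 1 mg/kg group and 4.31 ± 0.43 in the 5 mg/kg group (SD, n = 5 each), which places 5 mg/kg 3.14-fold and 1 mg/kg 1.94-fold below vehicle. The vehicle arrays were close together, and the spread was wider at either dose.

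The size of the difference at 5 mg/kg rests on where the floor lies. The log2 difference from vehicle was -1.65 with a floor of 16, -2.11 with a floor of 8 and -0.97 with a floor of 32, while at 1 mg/kg it was -0.96, -0.96 and -0.85. In the deposited intensities, before any scaling, Ptpro ran from 1.07 to 37.9 at 5 mg/kg, against 49.9 to 71.8 with vehicle, so these groups did not overlap there either. At 1 mg/kg the deposited values ran from 6.53 to 62.4 and overlapped those of vehicle, the highest being on replicate 4, which was the brightest array of the series. Groups that lay wholly below vehicle were seen for 1.24% of all tested probe sets at 5 mg/kg and for 0.709% at 1 mg/kg. As Ptpro was picked from these contrasts, nothing is read from its own place among them.

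A second Ptpro probe set was dim. It had 21.2, 16, 27.9, 24.1 and 16 with vehicle, and none of the 10 treated arrays rose above the floor. It therefore passed the floor on 3 arrays and was not tested. Both probe sets thus had their highest values in vehicle mice, and the dim one carries too little signal to give a fold change.

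**Figure D1:**
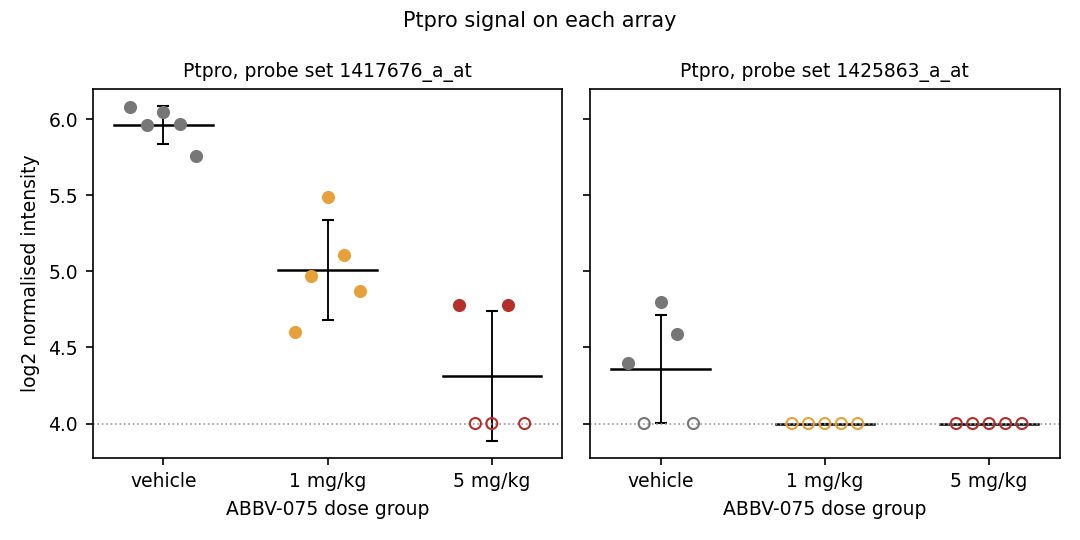
Log2 normalised intensity of the 2 Ptpro probe sets on each of 15 arrays by dose group (points; open points are at the floor, dotted line; bars are the mean and SD, n = 5). In the left panel the vehicle arrays lie between 54.4 and 67.6 on the linear scale, above all treated arrays, and in the right panel all treated arrays are at the floor.

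By Pearson correlation of log2 values over the 15 arrays, among 12523 genes each represented by its brightest tested probe set, the 6 most like Ptpro were Fpr2, a formyl peptide receptor (r = 0.92), Clec4a3, a C-type lectin receptor (0.91), Ear3, an eosinophil-associated ribonuclease (0.91), Smpdl3a, a phosphodiesterase of the acid sphingomyelinase family (0.90), Clec7a, the beta-glucan receptor dectin-1 (0.90), and Pla2g7, which hydrolyses platelet-activating factor (0.89). With the group means taken out, the same 6 correlations were 0.75, 0.49, 0.45, 0.67, 0.64 and 0.45. The 5 arrays of a dose share a treatment, so the first set of values includes the differences between dose groups. For Ear3 no array at 5 mg/kg lay above the floor.

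Monocyte markers had lower values in treated mice, as Ptpro did. Of 12 listed, 10 had a probe set of their own. All 10 were lower at 5 mg/kg than with vehicle, against 51.0% of all tested probe sets, with a median log2 difference of -1.07. In limma 0 passed an adjusted p of 0.05, and 8 had an unadjusted p under 0.05, against 8.09% of all tested probe sets. The summed level of the 10 markers ran from 2979 to 4380 at 5 mg/kg, against 5009 to 8011 with vehicle. None of the 10 was at the floor on all 5 arrays of a group. At 1 mg/kg, 9 of 10 were lower, against 53.2% of all, with a median of -0.60 and a summed level of 3799 to 6681. There 0 passed in limma and 6 had an unadjusted p under 0.05, against 5.96% of all. Ptpro and the marker mean correlated at 0.88 over 15 arrays and at 0.36 with group means taken out. Relative to the marker mean, Ptpro stood at -1.53 ± 0.35 in vehicle mice, -1.85 ± 0.24 in the 1 mg/kg group and -2.09 ± 0.39 in the 5 mg/kg group (log2, SD, n = 5 each), and these ranges overlapped. Only 2 of the 5 Ptpro arrays at 5 mg/kg were above the floor. The value of -2.09 and the overlap at that dose therefore depend on where the floor lies, and the correlation of 0.36 includes tied Ptpro values. Fewer monocytes in the blood and less RNA of these genes per monocyte cannot be told apart in whole blood, and their part in the Ptpro values was not tested.

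**Figure D2:**
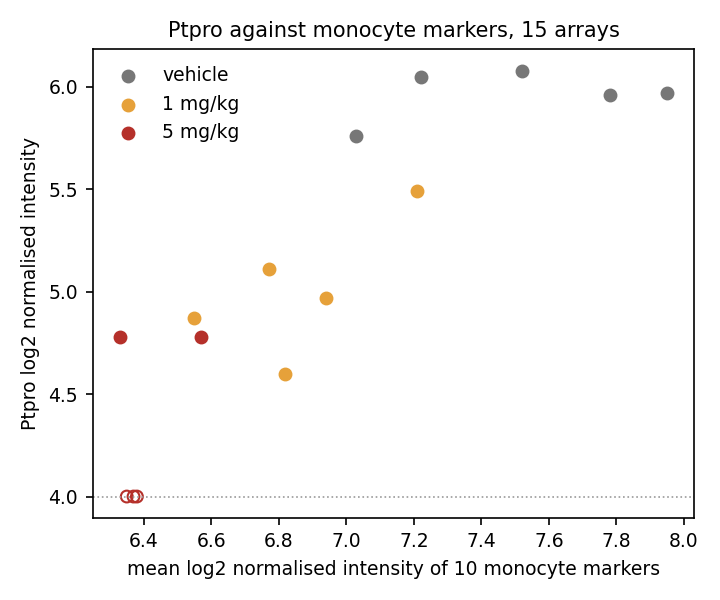
Ptpro (main probe set, vertical axis) against the mean of 10 monocyte markers (horizontal axis), both in log2 normalised intensity, 1 point per array (n = 15; open points are at the floor, dotted line). Vehicle arrays lie at the upper right and 5 mg/kg arrays at the lower left, and with group means taken out the correlation was 0.36.

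None of the other 9 phosphatases passed the test at 5 mg/kg against vehicle. Of their 18 measured probe sets, 0 passed an adjusted p of 0.05 in limma, against 0.162% of all tested probe sets. At an unadjusted p under 0.05 there was 1, against 8.09% of all. Values were below vehicle for 10 of the 18, against 51.0% of all, and ran from -0.96 to 0.65 on the log2 scale with a median of -0.02 (0.11 without scaling between arrays, -0.24 with the 18S signal as a covariate and -0.16 when the 2 vehicle arrays with most 18S signal were left out), beside -0.007 over all tested probe sets. The 95% intervals reached between 0.32 and 0.67 to either side, with 5 arrays per group. For Ptpn22 and Ptpra many arrays were tied at the floor, which can narrow an interval, so theirs do not measure precision. No member other than Ptpro had groups without overlap in any of the 3 comparisons, against 2.53% of all tested probe sets at 5 mg/kg, 0.877% at 1 mg/kg and 1.28% between the doses, in either direction.

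The same held at 1 mg/kg against vehicle, where 0 of the 18 passed in limma, beside 0.00507% of all. At an unadjusted p under 0.05 there were 2, both lower, against 5.96% of all tested probe sets. Values below vehicle made up 12 of the 18, against 53.2% of all, with a median of -0.29 (-0.45 with the 18S covariate) and a range of -1.02 to 0.53. Both doses were set against the same vehicle arrays, so their differences are not independent of each other.

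**Figure D3:**
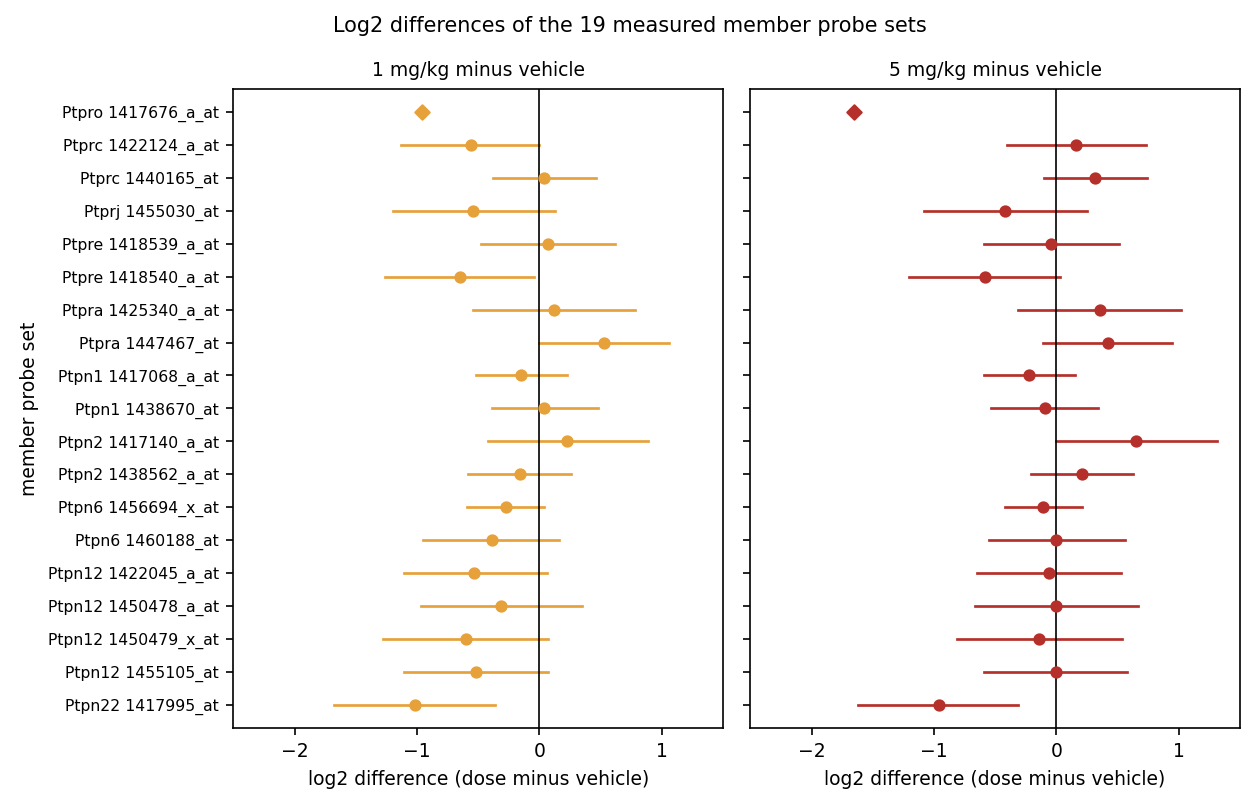
Log2 difference from vehicle of the 19 measured member probe sets at 1 mg/kg (left) and 5 mg/kg (right); circles carry the limma 95% interval (n = 5 per group), and the diamond is Ptpro, shown without an interval because it was picked for this difference. Ptpro lies at -1.65 at 5 mg/kg and the 18 other probe sets lie between -0.96 and 0.65 there.

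Ptpn22 had the lowest difference from vehicle of the 9 tested members at both doses. It encodes the lymphoid phosphatase PEP, which acts with the kinase Csk to restrain antigen receptor signalling. Its only probe set had 34.1, 59.1, 44.7, 46.3 and 16 in vehicle mice, 29.4, 16, 16, 16 and 16 at 1 mg/kg, and 23.0, 16, 16, 16 and 25.1 at 5 mg/kg. Vehicle replicate 5 was at the floor, so the groups overlapped, and 7 of the 10 treated arrays were at the floor with it. The value of 29.4 lay on 1 mg/kg replicate 1, the dimmest array, from a deposited 7.92. Replicates 2 and 3 of that dose, with deposited values of 8.66 and 9.08, were at the floor. The log2 difference was -0.96 ± 0.31 at 5 mg/kg (SE, n = 5 per group; limma adjusted p = 0.322, unadjusted p = 0.00681) and -1.02 ± 0.31 at 1 mg/kg (adjusted p = 0.686). The members were chosen with Ptpro's fall and other earlier results of these data known, and the Ptpn22 value did not pass at either dose. With the 18S covariate it was -0.54 at 5 mg/kg and -0.73 at 1 mg/kg. Its correlation with Ptpro over the arrays was 0.58, and -0.03 with group means taken out.

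Ptprc, which encodes the common leukocyte antigen CD45 and frees Src family kinases from inhibition in lymphocytes, did not pass at any dose. The main probe set had 1140, 1800, 1530, 1190 and 1170 in vehicle mice, 592, 1370, 1460, 910 and 572 at 1 mg/kg, and 1240, 1480, 1670, 1760 and 1420 at 5 mg/kg. Replicates 1, 4 and 5 at 1 mg/kg lay below all other arrays, while all 5 mg/kg arrays lay within the range of the vehicle arrays. The log2 difference from vehicle was 0.16 ± 0.27 at 5 mg/kg (SE, n = 5 per group; adjusted p = 0.933) and -0.56 ± 0.27 at 1 mg/kg (adjusted p = 0.836, with 95% limits of -1.13 and 0.00). Between the doses, 5 mg/kg was higher than 1 mg/kg by 0.73 ± 0.27 (adjusted p = 0.475). The other Ptprc probe set gave 0.32 at 5 mg/kg and 0.04 at 1 mg/kg, and its correlation with the first over the 15 arrays was 0.16. Ptprcap, which encodes a protein bound to CD45, lay above vehicle on all 5 arrays at 5 mg/kg with a log2 difference of 0.72 ± 0.30 (adjusted p = 0.527). Groups without overlap, in either direction, were seen for 2.53% of all tested probe sets at that dose.

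Ptprj encodes CD148, which like CD45 acts on Src family kinases in B cells and macrophages. The main probe set had 67.2, 91.4, 105, 114 and 138 in vehicle mice, 42.7, 87.1, 110, 102 and 38.2 at 1 mg/kg, and 63.9, 83.2, 66.6, 111 and 61.5 at 5 mg/kg. Replicates 1 and 5 at 1 mg/kg were again the lowest of all. Replicate 1 is the dimmest array of the series, whereas replicate 5 had a deposited array median of 13.5. The log2 difference from vehicle was -0.42 ± 0.31 at 5 mg/kg (SE; adjusted p = 0.804) and -0.54 ± 0.31 at 1 mg/kg (adjusted p = 0.861). With the 18S covariate it was -0.72 at 5 mg/kg. The other 3 probe sets of Ptprj were at or near the floor, with a highest value of 23.8, and were not tested.

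Ptpre, whose cytosolic form is expressed in macrophages and osteoclasts, gave unlike values in its 2 probe sets. The main one had 96.1, 96.5, 84.2, 66.7 and 76.9 in vehicle mice, 37.7, 62.5, 90.1, 60.4 and 32.5 at 1 mg/kg, and 56.6, 30.7, 66.0, 63.4 and 72.9 at 5 mg/kg. Most treated arrays lay below the lowest vehicle array, but 1 at 1 mg/kg and 1 at 5 mg/kg did not. The log2 difference was -0.58 ± 0.29 at 5 mg/kg (SE; adjusted p = 0.648) and -0.65 ± 0.29 at 1 mg/kg (adjusted p = 0.819, unadjusted p = 0.0378), and at 5 mg/kg it was -0.31 with the 18S covariate. The other gave -0.04 at 5 mg/kg and 0.07 at 1 mg/kg, and the correlation between the pair over 15 arrays was -0.49. Which of the pair reads the Ptpre transcripts of blood was not measured.

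Ptpra, a broadly expressed phosphatase that activates Src and Fyn, was barely above the floor. Its main probe set had a median of 16 in vehicle mice and in the 1 mg/kg group, and of 23.8 in the 5 mg/kg group. It was above the floor on 2, 2 and 3 arrays. Its other probe set was at the floor on all 5 vehicle arrays and above it on 3 arrays at each dose, reaching 37.3 at 1 mg/kg and 29.1 at 5 mg/kg. The 37.3 was on 1 mg/kg replicate 1, the dimmest array, with a deposited value of 9.99. Vehicle replicates 1 and 5, at the floor after normalisation, had deposited values of 10.4 and 10.6. The differences, 0.36 and 0.42 at 5 mg/kg and 0.12 and 0.53 at 1 mg/kg, did not pass (smallest adjusted p = 0.736).

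Among the non-receptor members, Ptpn6 encodes SHP-1, which is recruited by the inhibitory receptors of blood cells and whose loss causes the motheaten disease of mice. The main probe set had 319, 342, 380, 348 and 347 in vehicle mice, 271, 334, 260, 269 and 305 at 1 mg/kg, and 328, 359, 323, 316 and 286 at 5 mg/kg. Its arrays were the most alike of the set, with an SD of 0.09 to 0.15 on the log2 scale. The difference from vehicle was -0.11 ± 0.15 at 5 mg/kg (SE; adjusted p = 0.921, with 95% limits of -0.42 and 0.21) and -0.27 ± 0.15 at 1 mg/kg (adjusted p = 0.855). The other probe set gave 0.00 at 5 mg/kg and -0.39 at 1 mg/kg. The suffix of the main one marks sets with probes that can match other transcripts, and a Ptpn12 probe set carries it too.

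Ptpn1 encodes PTP1B, a phosphatase of the endoplasmic reticulum that acts on the insulin receptor and on Jak2. The main probe set had 328, 396, 426, 464 and 431 in vehicle mice, 464, 355, 392, 281 and 365 at 1 mg/kg, and 308, 332, 356, 420 and 338 at 5 mg/kg. The groups overlapped throughout. The log2 difference was -0.22 ± 0.18 at 5 mg/kg (SE; adjusted p = 0.817) and -0.15 ± 0.18 at 1 mg/kg (adjusted p = 0.936), and the second probe set gave -0.09 and 0.04. With the 18S covariate the main probe set was at -0.66 ± 0.25 at 5 mg/kg (unadjusted p = 0.0186, adjusted p = 0.517) and -0.45 ± 0.21 at 1 mg/kg (unadjusted p = 0.0449, adjusted p = 0.735).

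Ptpn2 encodes the T cell phosphatase TC-PTP, which removes phosphate from Jak1 and Jak3. The main probe set had 110, 151, 119, 123 and 109 in vehicle mice, 82.9, 152, 123, 117 and 85.7 at 1 mg/kg, and 130, 129, 125, 174 and 154 at 5 mg/kg. The difference was 0.21 ± 0.20 at 5 mg/kg (SE; adjusted p = 0.860) and -0.16 ± 0.20 at 1 mg/kg (adjusted p = 0.939). A second Ptpn2 probe set stood highest of the 18 at 5 mg/kg, at 0.65 ± 0.31 (limma, unadjusted p = 0.0515, so it did not pass). It had 56.5, 46.1, 94.5, 90.2 and 104 at 5 mg/kg, against 39.4, 84.6, 47.3, 44.6 and 34.0 with vehicle, and vehicle replicates 2 and 3 lay within the 5 mg/kg range. The other pair of Ptpn2 probe sets was at the floor except for 1 array at 1 mg/kg with 18.9.

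Ptpn12 encodes PTP-PEST, which acts on adhesion and cytoskeletal proteins. The main probe set had 297, 502, 441, 517 and 423 in vehicle mice, 145, 434, 434, 327 and 265 at 1 mg/kg, and 414, 337, 407, 488 and 514 at 5 mg/kg. The 5 mg/kg and vehicle arrays had the same mean log2 value, 8.74, and 1 mg/kg differed from vehicle by -0.52 ± 0.28 (SE; adjusted p = 0.855). All 4 of its probe sets were measured, and they correlated with one another at 0.60 to 0.98 over the 15 arrays. At 1 mg/kg they gave -0.31 to -0.60 relative to vehicle, and at 5 mg/kg -0.14 to 0.00. As they are annotated to a single gene, they count as 1 observation of Ptpn12 and not as 4.

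**Figure D4:**
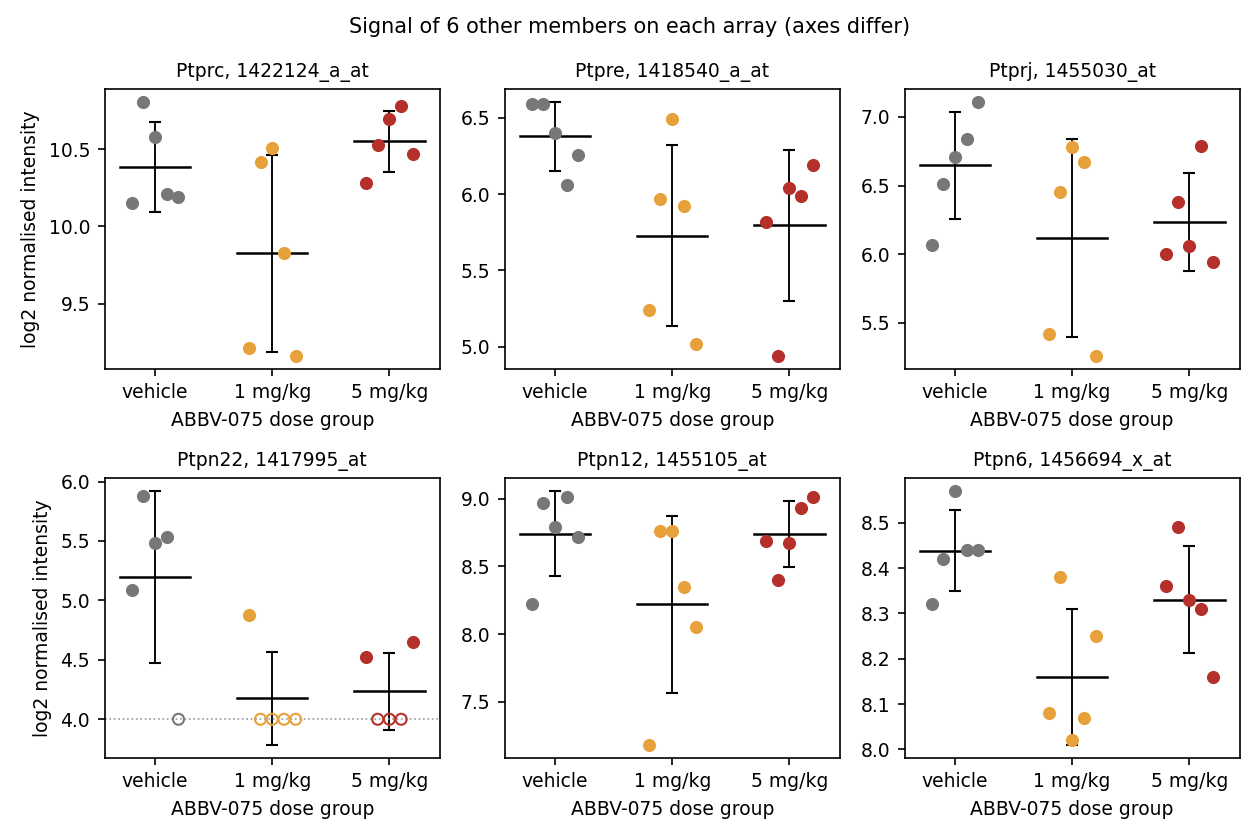
Log2 normalised intensity of 6 other members on each of 15 arrays by dose group (points; open points are at the floor, dotted line, drawn where it was reached; bars are the mean and SD, n = 5; vertical axes differ). Ptpn22 shows 4 of 5 vehicle arrays above the floor and 3 of 10 treated arrays, and in Ptprc, Ptprj and Ptpn12 the wide spread lies at 1 mg/kg. At that dose Ptprc and Ptprj were lowest on replicate 5 (572 and 38.2), and Ptpn12 on replicate 1 (145). Replicate 1 is the dimmest array, whereas replicate 5 had a deposited array median of 13.5. The cause of the spread was not tested.

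Between the doses, 0 of the 18 probe sets of the other members passed in limma, beside 0% of all tested probe sets. At an unadjusted p under 0.05 there was 1, Ptprc, higher at 5 mg/kg, against 8.58% of all. Of the 18, 14 lay above 0 and 4 below 0 for 5 mg/kg minus 1 mg/kg, where 49.5% of all tested probe sets lay below 0. The median of the 18 was 0.26, beside 0.005 over all. For Ptpro the same difference was -0.70, given as a description. The 18 are not separate observations, since Ptprc, Ptpn2 and Ptpn12 correlated with one another at 0.81 to 0.86 over the arrays, and at 0.74 to 0.83 with group means taken out.

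The coefficients of Ptpro with those 3 genes were lower. It correlated over the arrays at 0.04 with Ptprc, -0.10 with Ptpn2 and 0.19 with Ptpn12, and at 0.39, 0.42 and 0.45 with group means taken out. Its closest member was Ptpre, at 0.61 and 0.50. These are descriptions of 15 arrays, on which probe sets share the labelling and scaling of each array.

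Other genes of the pathway did not pass in any comparison. Of 28 further classical tyrosine phosphatases, 24 had a probe set of their own and 18 were tested. At 5 mg/kg against vehicle 0 rose and 0 fell in limma (0 at an unadjusted p under 0.05), 13 of 18 lay below 0 and the median was -0.11, or 0.04 without scaling between arrays and -0.25 (15 of 18 below 0) when the 2 vehicle arrays with most 18S signal were left out. The smallest unadjusted p belonged to Ptprv, at -0.31 ± 0.18 (SE, adjusted p = 0.721), and to Ptprn, a secretory granule protein of neuroendocrine cells, at 0.41 ± 0.28 (adjusted p = 0.777). All 5 Ptprv arrays lay below vehicle, as was seen for 1.24% of all tested probe sets. In this list too, 0 passed at 1 mg/kg or between the doses.

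The kinases on which these phosphatases act showed no call either. Of 16 Src, Syk and Tec family kinases and Csk, 12 had a probe set of their own and 11 were tested, with a median of -0.04 at 5 mg/kg (0.11 without scaling) and -0.22 at 1 mg/kg. Syk, which signals from antigen and Fc receptors, stood at 0.38 ± 0.23 at 5 mg/kg (SE; adjusted p = 0.736) and the Src family kinase Fyn at 0.36 ± 0.22 (adjusted p = 0.741). Of 11 Jak kinases and Stat factors, 9 were tested, with medians of 0.12 at 5 mg/kg (-0.01 when the 2 vehicle arrays with most 18S signal were left out) and 0.01 at 1 mg/kg (-0.08 without scaling and -0.24 when those 2 arrays were left out). Stat5a, which carries signals from cytokine receptors, stood at 0.62 ± 0.25 at 5 mg/kg (adjusted p = 0.515), and Stat6, which carries the interleukin-4 signal, at -0.34 ± 0.18 at 5 mg/kg (adjusted p = 0.697). At 1 mg/kg 4 of the 9 lay below 0, and 2 had an unadjusted p under 0.05 in limma, beside 5.96% of all tested probe sets. They were Stat6, at -0.65 ± 0.18 (adjusted p = 0.536), and Stat2, at 1.34 ± 0.47 (adjusted p = 0.761). Stat2 had a mean log2 value of 4.24 in vehicle mice, near the floor, so the size of its difference depends on where the floor lies. All 5 Stat6 arrays at 1 mg/kg lay below vehicle, as for 0.709% of all tested probe sets.

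Of 14 inhibitory receptors and adaptors that engage these phosphatases, 13 were tested and 0 passed. Their median was -0.18 at 5 mg/kg, or 0.07 without scaling between arrays, and 4 of 13 had an unadjusted p under 0.05, beside 8.09% of all tested probe sets. Besides Ptprcap, the smallest p was that of Sirpa, the CD47 receptor of myeloid cells that recruits SHP-1. Its log2 difference was -0.56 ± 0.24 at 5 mg/kg (SE; adjusted p = 0.539) and -0.21 ± 0.24 at 1 mg/kg (adjusted p = 0.929). All 5 Sirpa arrays at 5 mg/kg lay below all 5 vehicle arrays, as was seen for 1.24% of all tested probe sets. The monocyte marker values given beside Ptpro were lower in the same arrays, and their part in the Sirpa values was not tested.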

How the data were processed

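Whole-blood RNA of 15 mice was measured, 1 array each. Per the labels' protocols, biotin-labelled cRNA was made from 200 ng of RNA. The authors deposited linear intensities, 1 per probe set, some of them below 0. The sources used here do not state how they were summarised. There were 45101 probe sets. The 64 control probe sets were left out, and the rest were quantile normalised, set to at least 16 and taken to log2. Probe sets with 1 annotated gene (34945; 932 had several and 9160 none listed) were tested if above 16 on at least 5 arrays. The annotation can be old, and 0 symbols changed through Entrez identifiers.

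Groups were compared over all 19736 tested probe sets by lmFit and eBayes of limma 3.58.1 (R 4.3.3; two-sided tests, 12 residual and 3.98 prior degrees of freedom), with Benjamini-Hochberg adjustment and a threshold of 0.05. The script was tested on simulated data. Precision is limited by having 5 arrays a group. Members and lists were chosen with earlier results of these data known. Named genes were all members, and of each of 4 pathway lists the 2 of smallest p at 5 mg/kg; the remarks on overlap were added after the values were seen. Replicate numbers recur across groups, but the mice differ, so no pairing was used: same-numbered arrays correlated at -0.28 to 0.32 in their deviations.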

Additional observations from a re-analysis of the deposited data

How the results depend on the processing

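There were 29 alternatives, 14 settings and 15 that leave out 1 array each. Under all of them, 0 probe sets of the 9 tested members passed in limma in any comparison. Of their 9 to 21 tested probe sets, 0 to 3 had an unadjusted p under 0.05 at 5 mg/kg and 1 to 7 at 1 mg/kg. In the main fit the shares of all tested probe sets were 8.09% and 5.96%. The 7 were of 18, without 1 mg/kg replicate 3, where 1199 of 19522 probe sets in all had such a p. Ptpro stayed below vehicle throughout, at -2.11 to -0.97 at 5 mg/kg and -1.08 to -0.76 at 1 mg/kg. Ptpn22 stayed below vehicle in the 27 alternatives that tested it, at -1.46 to -0.54 and -1.62 to -0.73.

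The count over all tested probe sets depended on the processing. At 5 mg/kg against vehicle it was 32 (10 higher, 22 lower), and it was 2 without scaling between arrays, 19 with a floor of 8, 69 with a floor of 32, 11 with 1 probe set per gene, 93 with array weights, 50 with the 2 groups compared alone, 0 with the 18S signal as a covariate (1708 at an unadjusted p under 0.05) and 4 when the 2 vehicle arrays with most 18S signal were left out. Leaving out 1 array gave 12 to 37. The count fell by over 1.5 times without vehicle replicates 1 (15), 3 (17), 4 (16) or 5 (21), 1 mg/kg replicate 2 (21), or 5 mg/kg replicates 3 (18) or 5 (12). At 1 mg/kg it was 1, and 4 with a floor of 32, 0 without scaling, with a filter of at least 1 or 10 arrays, with array weights, with the 2 groups alone, with the replicate block or with the 18S covariate, and 0 to 2 leaving out 1 array (2 without 1 mg/kg replicate 2 or 3, 0 without vehicle replicates 1 to 4, 1 mg/kg replicates 1, 4 or 5, or 5 mg/kg replicates 1, 3 or 5). Between the doses it was 0, 1 with a floor of 8 and 0 to 1 leaving out 1 array (1 without replicate 4 of either dose). Without scaling the median of all probe sets at 5 mg/kg was 0.121. With the replicate number as a block, the replicate block gave 23 probe sets at 5 mg/kg, and in 3 of 15 same-numbered pairs the best match was the same number.

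Of 858 member values, 24 turned sign, all of them small. Without scaling, Ptpn12 (0.12) and Ptpn6 (0.01) turned at 5 mg/kg against vehicle and Ptpn1 (0.10) between the doses. When a gene's probe sets were averaged, Ptpn2 at 1 mg/kg (0.04) and Ptpre between the doses (-0.02) turned, and with array weights Ptpre (-0.09) and Ptprj (-0.03) between the doses. Leaving out 1 array gave, between the doses, -0.17 to 0.01 for Ptpn1, -0.04 to 0.26 for Ptpn22, -0.04 to 0.45 for Ptpra, -0.11 to 0.28 for Ptpre and -0.10 to 0.29 for Ptprj, at 5 mg/kg -0.14 to 0.08 for Ptpn12, and at 1 mg/kg -0.10 to 0.22 for Ptpra. The cause was not tested.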
